A study of Mus musculus with 14 samples.

Results

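Expression of 10 genes of matrix and wound repair was followed across 4 groups of sorted mouse cells: Spp1, Fn1, Thbs1, Gpnmb, Pdpn, Mmp12, Mmp14, Mmp19, Timp1 and Tgfbi. They were taken by name from the 17178 gene symbols that the array's probes carry. The choice was made with earlier results of these data known. A share of called members above that of all features is therefore no independent support. Of these 10 genes, 9 had a probe that could be tested, among 12966 tested genes with a symbol. The 10 genes had 18 probes, of which 15 passed the filters, and the brightest passing probe stood for each gene. The single probe of Tgfbi was usable on too few arrays to be tested.

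All mice were males of the YARG strain, which carries a fluorescent reporter of arginase-1 (Arg1), aged 12 to 16 weeks. Traumatic brain injury (TBI) was a piston strike on the cortex, and cells were taken 1 day later. The groups were brain macrophages with the reporter (Arg1+, n = 4), brain macrophages without it (Arg1-, n = 4), blood monocytes of injured mice (post-TBI blood, n = 3) and blood monocytes of mice that had no treatment (normal blood, n = 3). No group here had the operation without the strike, so injury and surgery cannot be told apart. Brains were digested with collagenase and DNase and cleared on Percoll, blood was cleared on ficoll, and cells were sorted with antibodies to CD45, CD11b, Ly6G and F4/80. The gate of each group is not given in the sources used here. The labels do not say whether replicates are separate animals, so the p-values measure only the spread between these samples, which may be technical.

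Wounded tissue is held together and then rebuilt through a provisional matrix of secreted glycoproteins, which macrophages both deposit and break down. Osteopontin (Spp1), fibronectin (Fn1), thrombospondin-1 (Thbs1) and the TGF-beta-induced protein (Tgfbi) are secreted proteins that bind integrins or other surface receptors of cells. Metalloproteinases (Mmp12, Mmp14, Mmp19) cut matrix proteins, Timp1 blocks metalloproteinases, and Gpnmb and podoplanin (Pdpn) are glycoproteins of the cell membrane. In injured brain, macrophages that come from blood and resident microglia both can make such proteins.

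Levels are log2 ratios of a probe's signal to the 75th percentile of its array, so a level of 0 is the brightness of that percentile. Ratios under 0.05 were set to 0.05, which puts the floor at -4.32, and values at the floor have no order. A level describes a probe and does not rank one gene against another. Array brightness at that percentile lay between 119.4 and 418.5. Between 50.40% and 68.68% of an array's probes passed the scanner's background test, and arrays of the same group correlated across genes at 0.933 to 0.983. Arg1 itself was at 6.20 to 6.82 on 3 usable Arg1+ arrays and at 2.12 to 4.20 on the Arg1- arrays, so every usable Arg1+ array was above every Arg1- array. Macrophage and monocyte markers, 9 with a probe, were well above background on every array of each group. Differences come from 1 limma fit over all 21972 tested features, with Benjamini-Hochberg adjustment over all of them, and a feature was called at an adjusted p under 0.05. Values after ± are standard errors of log2 differences, or SDs where a mean level is given.

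Promoters are shown for the members called between the brain groups or between the blood groups, because these differed between conditions. RefSeq's table for GRCm38.p6 held a promoter for 7 of the 10 members, with 9 starts, and the stretch shown is the 250 bases before a start, 5′ to 3′ on the gene's strand. Capitals mark matches on either strand to motifs of macrophage and stress factors. TGANTCA is the site of AP-1. The M-box of MITF factors is CATGTG. A palindromic E-box reads CACGTG, and it contains ACGTG, the core of the hypoxia response element. PU.1 binds a core of GAGGAA, and the last motif searched was the TATA box, TATAAA.
Spp1, first start, chr5:104434861-104435110, plus strand: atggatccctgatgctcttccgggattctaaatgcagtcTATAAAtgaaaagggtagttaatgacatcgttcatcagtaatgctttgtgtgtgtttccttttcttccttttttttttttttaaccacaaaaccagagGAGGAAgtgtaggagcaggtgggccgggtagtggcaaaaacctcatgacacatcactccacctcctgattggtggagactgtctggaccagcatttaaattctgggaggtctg
Pdpn, chr4:143299565-143299814, minus strand: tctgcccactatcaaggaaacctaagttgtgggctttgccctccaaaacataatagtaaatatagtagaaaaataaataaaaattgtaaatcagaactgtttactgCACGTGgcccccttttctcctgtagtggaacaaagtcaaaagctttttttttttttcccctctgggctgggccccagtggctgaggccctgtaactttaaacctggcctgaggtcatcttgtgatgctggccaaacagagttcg
Mmp12, first start, chr9:7344147-7344396, plus strand: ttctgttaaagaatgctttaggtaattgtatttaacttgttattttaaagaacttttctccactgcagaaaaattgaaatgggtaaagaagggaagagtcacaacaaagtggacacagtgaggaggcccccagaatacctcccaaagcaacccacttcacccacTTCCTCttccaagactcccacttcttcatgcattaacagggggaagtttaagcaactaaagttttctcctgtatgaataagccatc
Mmp12, second start, chr9:7347124-7347373, plus strand: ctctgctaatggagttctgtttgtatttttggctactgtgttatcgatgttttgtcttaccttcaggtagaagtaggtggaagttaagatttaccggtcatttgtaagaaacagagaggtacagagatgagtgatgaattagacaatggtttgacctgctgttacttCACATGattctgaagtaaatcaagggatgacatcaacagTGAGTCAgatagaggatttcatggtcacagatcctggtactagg
Mmp14, chr14:54431348-54431597, plus strand: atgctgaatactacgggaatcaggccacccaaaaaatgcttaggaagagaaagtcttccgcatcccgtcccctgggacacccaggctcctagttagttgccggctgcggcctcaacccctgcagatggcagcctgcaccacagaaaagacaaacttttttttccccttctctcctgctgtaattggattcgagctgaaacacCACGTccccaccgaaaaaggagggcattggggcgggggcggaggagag
The second start of Spp1 and the starts of Gpnmb and Tgfbi held none of these letters. Among 32851 windows of this length, 6.75% held the AP-1 site, 12.3% the M-box, 6.02% the palindromic E-box, 16.6% the hypoxia core, 23.3% the PU.1 core and 12.4% the TATA box. Among the 9 member windows, the AP-1 site and the M-box occurred only at the second start of Mmp12. The hypoxia core occurred in Pdpn, within its E-box, and in Mmp14 and Timp1. The PU.1 core occurred at the first starts of Spp1 and Mmp12. No motif was common to the 3 promoters of Spp1, Pdpn and Mmp12. A match describes letters and shows no binding, and a missing match says only that these letters are not in the window.

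Arg1+ brain macrophages carried more RNA than Arg1- ones for osteopontin and podoplanin, each about 3-fold, and for the dim elastase gene Mmp12, by an amount that depends on how dim values are treated. These 3 of 9 members were called higher, against 2.14% of all tested features, and no member was called lower by limma, against 2.92% of all features. Mmp12 passed the detection filter only through its Arg1+ arrays, so its place in this count is no independent support. At an unadjusted p under 0.05 the counts were 5 higher and 0 lower, against 8.10% and 9.46% of all features. The other 6 members had differences between 0.11 and 1.14 that did not pass the test. In these bulk samples a larger number of expressing cells and more RNA per cell cannot be told apart.

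Spp1 was at 7.64, 7.42, 8.09 and 7.43 on the Arg1+ arrays and at 6.31, 6.25, 5.68 and 5.95 on the Arg1- arrays. All 4 Arg1+ arrays were above all 4 Arg1- arrays. The difference was 1.60 ± 0.19 (3.03-fold, limma adjusted p = 0.000142). Arrays sat on 4 slides, each with 1 array of either brain group, and within slides 1 to 4 the difference was 1.69, 1.78, 1.18 and 1.74. Osteopontin binds integrins and the hyaluronan receptor Cd44 and draws leukocytes.

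Pdpn was at 5.59, 5.82 and 5.21 on 3 usable Arg1+ arrays, with the spot of replicate 4 set aside. It was at 4.58, 3.60, 3.94 and 3.47 on the Arg1- arrays. The groups did not overlap, with the Arg1- replicate 1 array nearest to the Arg1+ arrays. The difference was 1.64 ± 0.24 (3.12-fold, limma adjusted p = 0.00106), and within slides 1, 2 and 4 it was 2.13, 0.62 and 1.88. Podoplanin is the ligand of the platelet receptor Clec1b (CLEC-2). A second Pdpn probe was set aside on most brain arrays and was not tested.

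Mmp12, the macrophage elastase, was a dim probe even in brain cells. It was at -3.12, -2.18, -2.34 and -3.04 on the Arg1+ arrays, well above background on 3 of 4. On the Arg1- arrays it was at -4.17, -4.19, -3.71 and -4.32, well above background on 1 of 4. All Arg1+ arrays were higher, by 1.43 ± 0.22 (2.69-fold, limma adjusted p = 0.00157), and within slides 1 to 4 by 1.20, 1.83, 1.14 and 1.53. The size depends on how dim values are treated. It was 0.65 (adjusted p = 0.0614, no longer called) with the floor at a ratio of 0.1, 0.65 (adjusted p = 0.0101) in the authors' log2 values and 0.48 (adjusted p = 0.0115) after a normexp background correction.

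Gpnmb and Thbs1 did not overlap between the brain groups either, as held for 7.50% of all tested features in this direction, but neither was called. Gpnmb was at 6.59, 6.39 and 6.73 on 3 usable Arg1+ arrays and at 5.56, 5.61, 5.14 and 5.42 on the Arg1- arrays. Its difference of 1.14 ± 0.46 had an adjusted p of 0.208 by limma, and within slides 1, 2 and 4 it was 1.17, 1.16 and 1.25. Gpnmb spread more on the blood arrays, from -3.75 to -1.26, than on the brain arrays, and all groups share 1 estimate of the spread. In a fit on the brain arrays alone the same difference was called (adjusted p = 0.0126). With the spot of Arg1+ replicate 4 kept, it was 0.55 (adjusted p = 0.727), and a second, dimmer probe gave 0.65 (adjusted p = 0.0941).

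Thbs1, which can activate latent TGF-beta, was at 9.14, 8.48, 8.60 and 8.30 on the Arg1+ arrays and at 8.07, 7.99, 7.19 and 7.82 on the Arg1- arrays. The difference was 0.86 ± 0.43 (limma adjusted p = 0.327), and it was 0.40 with quantile normalization and 0.47 in the authors' values. Within slides 1 to 4 it was 1.32, 0.53, 0.32 and 1.29. A second probe gave 1.13 (adjusted p = 0.345).

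Fn1 was at 8.20, 8.27, 8.42 and 7.94 on the Arg1+ arrays and at 7.95, 7.09 and 7.65 on 3 usable Arg1- arrays. The ranges overlapped by the single pair of 7.94 and 7.95. The difference of 0.64 ± 0.27 was not called (limma adjusted p = 0.227). The mean of its probes was called (0.89, limma adjusted p = 0.0467). On Arg1- replicate 1 that mean held only the dimmest probe (6.17), since the spots of the brighter probes were set aside there. This lowers the Arg1- mean, because the dimmest probe averaged 5.97 over the Arg1- arrays and the others 7.34 and 7.56. The difference of 0.64 became 0.25 with quantile normalization, 0.12 after normexp and 0.05 in the authors' values.

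The remaining proteases and the inhibitor overlapped between the brain groups. Mmp14, a membrane-bound collagenase that also activates Mmp2, averaged 3.08 ± 0.08 (SD, n = 4) in Arg1+ and 2.75 ± 0.30 (SD, n = 4) in Arg1- cells, with a difference of 0.33 ± 0.17 (limma adjusted p = 0.34). Mmp19 averaged -1.33 ± 0.18 and -1.44 ± 0.11 (SD), with a difference of 0.11 ± 0.31 (adjusted p = 0.942). Timp1 averaged 1.82 ± 0.18 and 1.57 ± 0.27 (SD), with a difference of 0.24 ± 0.17 (adjusted p = 0.545). On single slides these differences had either sign, for example -0.04 for Mmp14 and -0.24 for Timp1 on slide 1 and -0.21 for Mmp19 on slide 2.

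**Figure D1:**
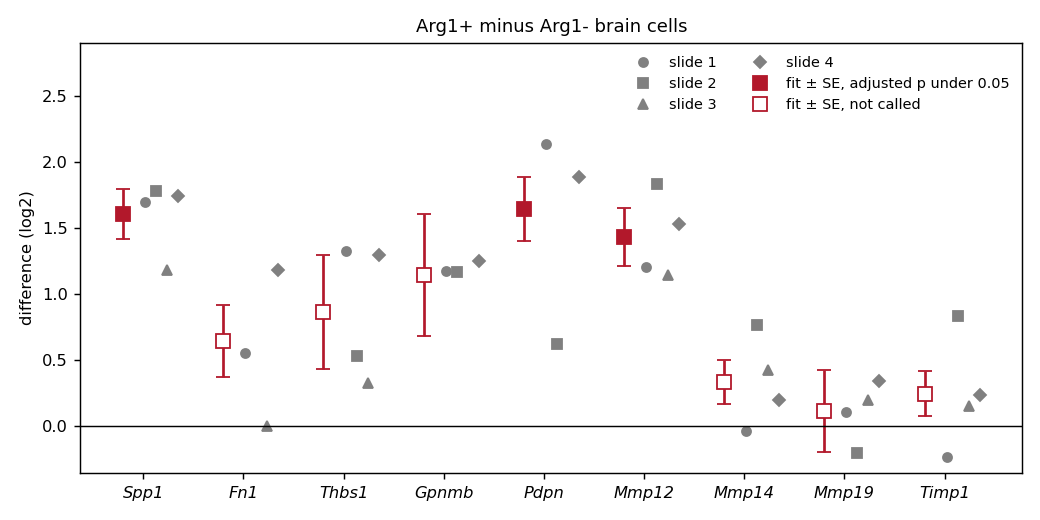
Log2 difference of Arg1+ minus Arg1- brain cells for the 9 tested members. Squares with bars are fitted differences ± SE, filled where the adjusted p is under 0.05, and grey points are differences within single slides. Spp1, Pdpn and Mmp12 were called and lay above 0 on every slide with usable spots, while points of Mmp14, Mmp19 and Timp1 lay on both sides of 0.

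Markers of other cells differed between the brain groups as well. Summed ratios over neutrophil markers (7 of 9 usable on all arrays) were 4.10 to 12.3 on the Arg1+ and 21.3 to 109 on the Arg1- arrays. Sums over 6 dendritic cell markers were 0.834 to 1.44 and 5.06 to 8.19. Sums over 9 microglia markers were 49.6 to 80.0 and 38.0 to 52.2. Sums over 8 platelet genes were 8.58 to 13.8 and 2.48 to 6.11. That last difference came with Ppbp, at 3.01 and 0.29, while the platelet receptor genes Gp9 and Gp5 were below background on all Arg1+ arrays. Sums over 9 T, B and NK cell markers were 0.575 to 0.931 and 1.32 to 2.58, and sums over 7 neuron markers were 4.23 to 18.3 and 3.40 to 5.93. Sums over 9 of 10 fibroblast and pericyte markers were 0.847 to 1.70 and 0.696 to 1.66, with 3 and 5 of the 10 well above background on all arrays of the group. The marker left out of these sums, for set-aside spots, was Acta2, which was far brighter than the rest. On usable arrays Acta2 was at 7.01 to 7.44 and 6.72 to 7.60. Dcn and Lum were below background on every array, and Col1a1 was at -2.73 to -1.37 and -3.42 to -1.64. Replicate 4 of either brain group had 8 of these 10 markers above background. Whether these cells or transcripts had a part in the differences above was not tested.

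Against blood monocytes of the same injured condition, most of these genes were higher in both kinds of brain macrophage. All 9 tested members were called higher in Arg1+ brain cells, against 19.9% of all features (20.0% were called lower), and 8 of 9 in Arg1- brain cells, against 17.0%. Mmp12 is counted here too, though it passed the detection filter only through its Arg1+ arrays. The smallest called difference was 2.16-fold, for Fn1 in Arg1- cells. The sizes for Spp1, Pdpn and Mmp12 are not firm and depend on the floor, because their blood values lie at or near it. Both comparisons use the same blood arrays, so their values are set side by side and not counted as separate evidence. Brain and blood cells also differed in tissue, digestion and cell isolation, which cannot be told apart from the groups. Microglia markers summed to 49.6 to 80.0 in Arg1+, 38.0 to 52.2 in Arg1- and 9.84 to 11.7 in post-TBI blood cells. Red cell markers, over the 3 of 5 usable on all arrays, summed to 0.286 to 0.819, 0.459 to 0.666 and 53.4 to 97.9. These sums leave out the haemoglobin genes Hba-a1 and Hbb-bt, which were well above background on every array. On usable arrays Hbb-bt was at 3.79 to 4.37, 4.16 to 5.23 and 9.90 to 10.23. The part of these cells or transcripts in the differences was not tested.

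**Figure D2:**
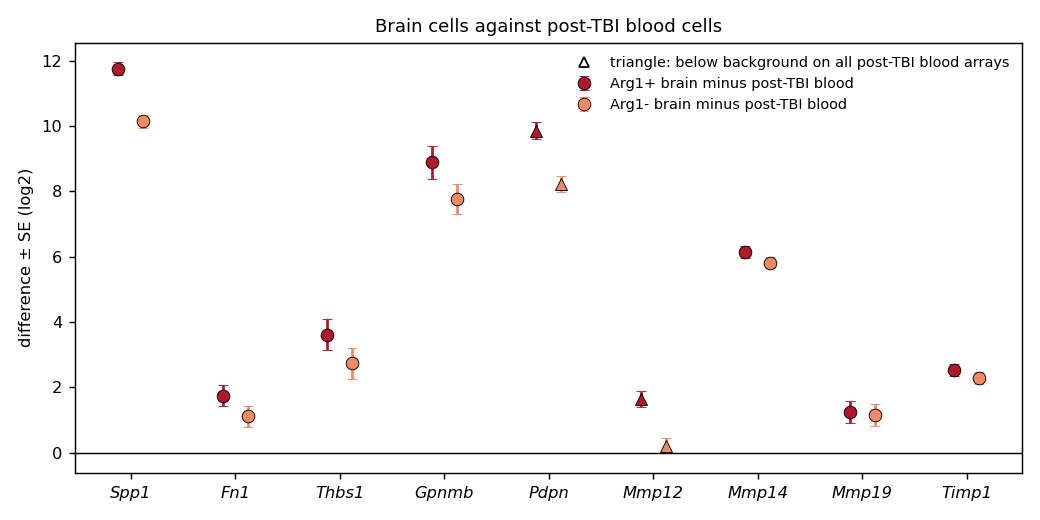
Log2 difference ± SE of each brain group minus post-TBI blood (both share the same 3 blood arrays). Triangles mark genes below background on all post-TBI blood arrays, whose values are differences to the floor and depend on it. Spp1, Gpnmb, Pdpn and Mmp14 lie above 5 in both brain groups, and Mmp12 of Arg1- cells lies at 0.22.

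Spp1 was at -3.77, -4.32 and -4.22 on the post-TBI blood arrays, well above background on 1 of 3. All brain arrays lay between 5.68 and 8.09. The difference was 11.75 ± 0.20 for Arg1+ (limma adjusted p = 1.39e-14) and 10.15 ± 0.20 for Arg1- cells (adjusted p = 1.21e-13). Pdpn was below background on every blood array. Against the floor it was at least 930-fold higher in Arg1+ and at least 298-fold higher in Arg1- cells (limma adjusted p = 4.27e-12 and 1.85e-11). Gpnmb, at -3.11, -1.26 and -2.61 in post-TBI blood, differed by 8.89 ± 0.50 and 7.76 ± 0.46 (limma adjusted p = 6.83e-09 and 2.69e-08). Its dimmer probe was at the floor in blood and gave at least 3.88 and 3.23 (log2).

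Thbs1 and Fn1 were bright in blood as well. Thbs1 was at 4.37, 4.49 and 6.21 in post-TBI blood, and was higher by 3.61 ± 0.47 in Arg1+ (limma adjusted p = 1.98e-05) and 2.74 ± 0.47 in Arg1- cells (adjusted p = 0.000346). Fn1 was at 6.20 and 6.71 on 2 usable post-TBI arrays, and was higher by 1.75 ± 0.31 (limma adjusted p = 0.000493) and 1.11 ± 0.32 (adjusted p = 0.0177). The Fn1 call in Arg1- cells was lost without Arg1- replicate 2 (0.92, adjusted p = 0.0617) and without post-TBI replicate 1 (0.85, adjusted p = 0.135). It was also lost in a fit on these 2 groups alone (adjusted p = 0.0713) and without the filter on dim probes (adjusted p = 0.115).

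Mmp14 was separated widely between brain and blood. It was at -3.28, -2.96 and -2.94 in post-TBI blood and at 2.43 or above on every brain array, a difference of 6.15 ± 0.18 for Arg1+ and 5.82 ± 0.18 for Arg1- cells (limma adjusted p = 4.59e-12 and 1.32e-11). Within slides 1 to 3 it was 6.06, 6.13 and 6.33 for Arg1+ cells. Mmp19 was at -3.51, -2.51 and -1.74 in post-TBI blood and was higher by 1.25 ± 0.33 (limma adjusted p = 0.00737) and 1.15 ± 0.33 (adjusted p = 0.0152). Within slides 1 to 3 the Arg1+ difference of Mmp19 was 1.17, 0.23 and 2.12. Its Arg1- call was lost without post-TBI replicate 1 (0.69, adjusted p = 0.0815) and in a fit on these 2 groups alone (adjusted p = 0.0582).

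Mmp12 was below background on every blood array. Against the floor it was 3.14-fold higher in Arg1+ cells (limma adjusted p = 6.53e-05). Arg1- cells were within 0.22 ± 0.24 of the floor (limma adjusted p = 0.54). The size of the Arg1+ difference depends on how dim values are treated, as it did between the brain groups. The Arg1- difference was called with a floor at 0.01 (2.50, adjusted p = 0.000107), with the authors' values (0.51, adjusted p = 0.0135) and after normexp (0.33, adjusted p = 0.0298). Timp1, the inhibitor, was at -0.63, -0.56 and -0.95 in post-TBI blood and was higher by 2.53 ± 0.19 in Arg1+ and 2.29 ± 0.19 in Arg1- cells (limma adjusted p = 5.62e-08 and 3.01e-07). Its second probe was below background on all blood arrays and gave differences of at least 5.68 and 5.30 (log2), so the 2 Timp1 probes disagree on the size of the difference.

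The probe of Tgfbi, a matrix protein that monocytes secrete, was well above background on all 14 arrays, but the scanner software marked 12 of its spots as uneven. The 2 usable spots were at 7.76 (Arg1+ replicate 2) and 6.10 (post-TBI replicate 1). With the uneven spots kept, it was at 7.48, 7.76, 7.83 and 7.53 on Arg1+ and at 7.11, 7.67, 7.16 and 7.73 on Arg1- arrays. In post-TBI blood it was then at 6.10, 6.10 and 6.18, and in normal blood at 5.59, 5.81 and 5.85. In that setting Tgfbi was higher in Arg1+ cells than in post-TBI blood by 1.53 ± 0.20 (limma adjusted p = 2.26e-05) and in Arg1- cells by 1.30 ± 0.20 (adjusted p = 0.000154). The brain groups differed by 0.23 ± 0.19 (adjusted p = 0.607) and the blood groups by 0.37 ± 0.21 (adjusted p = 0.854).

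**Figure D3:**
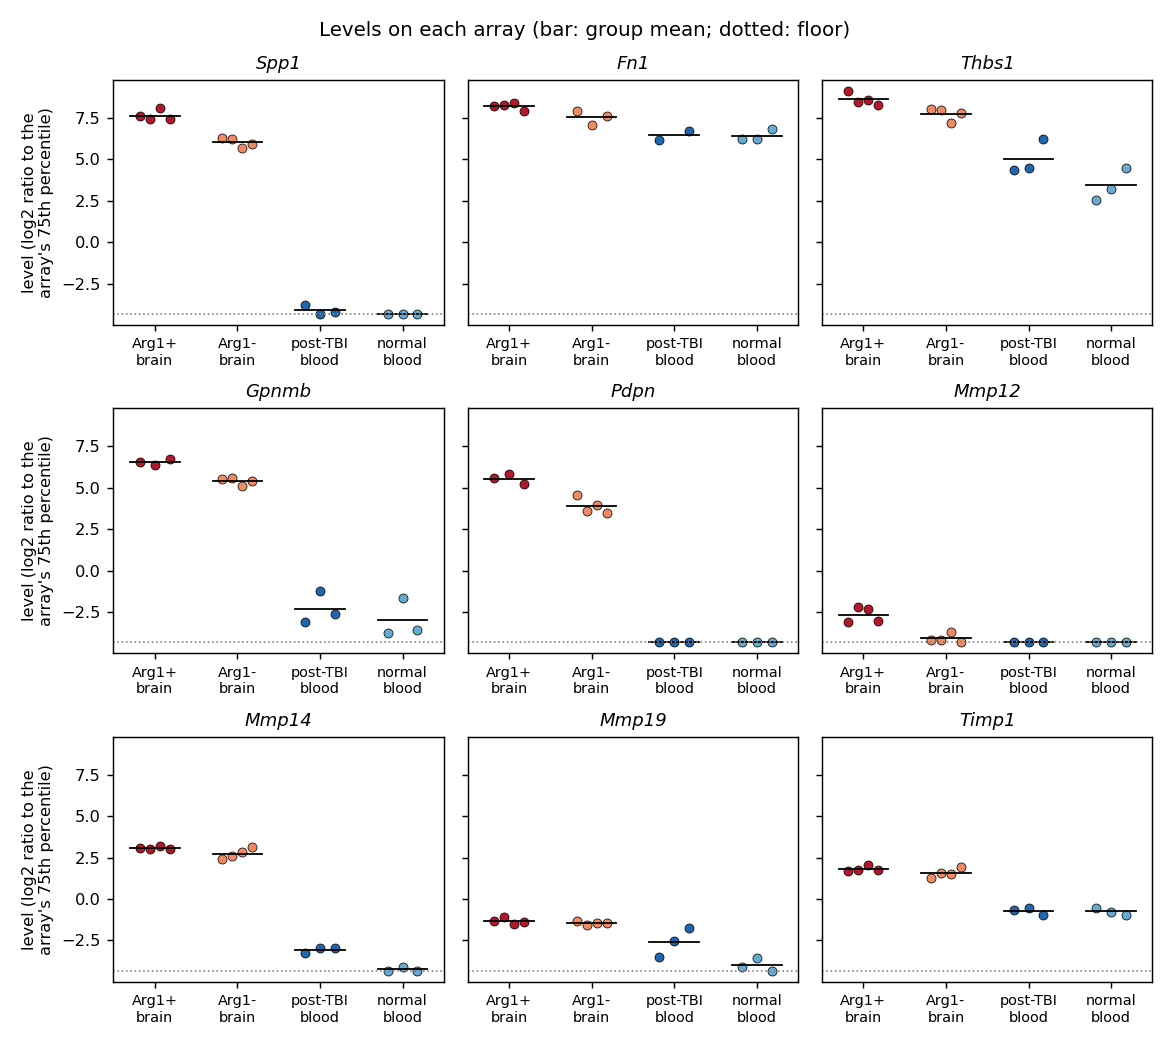
Level of the 9 tested members on each array, as log2 ratio to the array's 75th percentile, with bars at group means and the floor of -4.32 dotted. Spp1, Gpnmb, Pdpn and Mmp14 separate brain from blood by several log2 units, Fn1 and Thbs1 are bright in all 4 groups, and Mmp12 rises from the floor mainly in Arg1+ cells. Set-aside spots are not drawn.

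In blood, few of these genes differed between injured and untreated mice. Of the 7 members that were well above background in at least 1 blood group, 1 was called higher after TBI, against 0.109% of all features, and 3 were higher at an unadjusted p under 0.05, against 3.00% of all features. The called gene was Mmp14, at -3.28, -2.96 and -2.94 in post-TBI blood and at -4.32, -4.12 and -4.32 in normal blood, where 1 of 3 arrays of this probe was well above background. The groups did not overlap, and the difference was 1.19 ± 0.19 (2.29-fold, limma adjusted p = 0.0242), or 1.37, 1.38 and 0.84 within slides 1 to 3.

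The Mmp14 call rested on values close to the floor. It was lost with the floor at 0.1 (0.05, adjusted p = 1), in the authors' values (0.48, adjusted p = 0.57), after normexp (0.33, adjusted p = 0.775), with median scaling (1.21, adjusted p = 0.0647), with the mean of both probes (0.80, adjusted p = 0.0935) and in a fit on the blood arrays alone (1.19, adjusted p = 0.686). Its second probe, at -3.17, -3.89 and -4.30 after TBI and -3.98, -4.26 and -4.32 in normal blood, overlapped and gave 0.40 (adjusted p = 0.961). Leaving out post-TBI replicate 3 (1.14, adjusted p = 0.124) or 4 (1.13, adjusted p = 0.071), normal replicate 2 (1.16, adjusted p = 0.122) or 4 (1.16, adjusted p = 0.075), Arg1- replicate 3 (adjusted p = 0.0512) or Arg1+ replicate 4 (adjusted p = 0.0553) ended it too.

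Thbs1 had the largest difference in blood without being called. It was at 4.37, 4.49 and 6.21 after TBI and at 2.57, 3.19 and 4.51 in normal blood, so the groups overlapped by 1 normal array. The difference was 1.60 ± 0.50 (limma adjusted p = 0.438), and within slides 1 to 3 it was 1.93, 1.70 and 1.18. Without post-TBI replicate 4 it was 1.01 (adjusted p = 1), and without normal replicate 4 it was 2.15 (adjusted p = 0.155). A second probe gave 1.91 (adjusted p = 0.494).

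Platelets store thrombospondin-1, and platelet genes moved on the same arrays. All 9 platelet genes with a probe were well above background on every blood array. Their summed ratio, over the 8 usable on all arrays, was 11.6, 12.6 and 23.0 on post-TBI replicates 1, 3 and 4, and 5.56, 8.87 and 8.16 on normal replicates 2, 3 and 4. Replicate 4 of post-TBI blood was highest in both Thbs1 and this sum. The part of platelet RNA in the Thbs1 values was not tested. Red cell markers differed between the blood groups too, with sums over 3 genes of 53.4 to 97.9 in post-TBI and 6.81 to 52.9 in normal blood, without overlap. Alas2 averaged 6.03 and 4.36. The part of red cell RNA in the blood differences was not tested.

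Mmp19 was at -3.51, -2.51 and -1.74 after TBI and at -4.13, -3.53 and -4.32 in normal blood, with no overlap. The difference of 1.41 ± 0.36 was not called (limma adjusted p = 0.226), and within slides 1 to 3 it was 1.62, 2.58 and 0.02. It was called without post-TBI replicate 1 (1.87, adjusted p = 0.0216). Gpnmb differed by 0.66 ± 0.50 (limma adjusted p = 0.956), with -1.48 on slide 3 against 2.48 on slide 1. Spp1 differed by 0.22 ± 0.22, Fn1 by 0.01 ± 0.32 and Timp1 by 0.03 ± 0.20 (limma adjusted p = 1 for each). The sign of the Fn1 difference turned with median scaling (-0.05), with the mean of all probes (-0.04) and with the second brightest probe (-0.27). Mmp12 and Pdpn were below background on every array of both blood groups, and no difference is given.

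**Figure D4:**
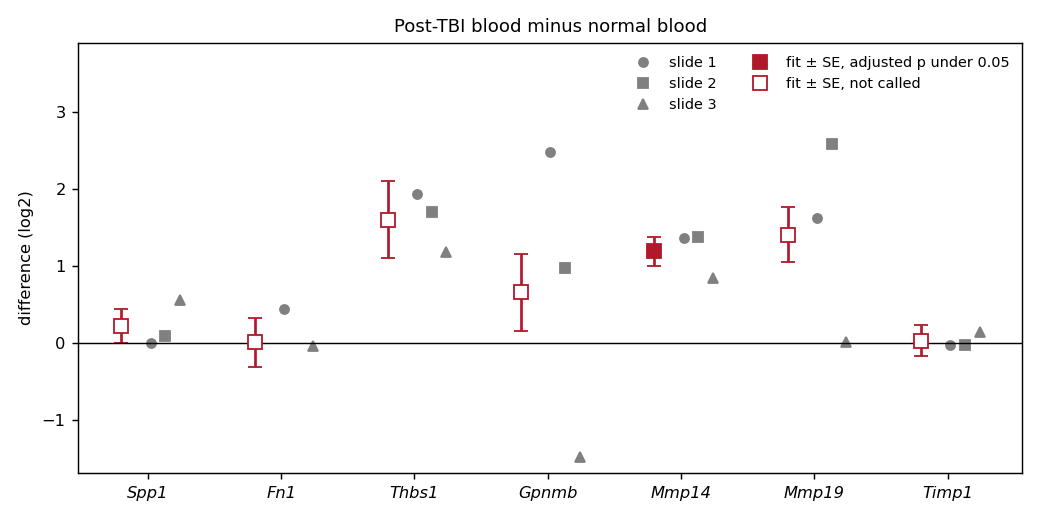
Log2 difference of post-TBI minus normal blood for the 7 members above background in blood. Squares with bars are fitted differences ± SE, filled where the adjusted p is under 0.05, and grey points are differences within slides 1 to 3. Mmp14 alone was called, and the slide values of Gpnmb and Mmp19 are widely spread.

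For every tested member the order of mean levels was Arg1+ brain, then Arg1- brain, then the blood groups. The first pair of neighbours was called different for Spp1, Pdpn and Mmp12, and Gpnmb and Thbs1 did not overlap there without being called. The second pair, Arg1- brain and post-TBI blood, was called different for 8 of 9, with Mmp12 as the exception. The blood groups were called different for Mmp14, and Mmp19 did not overlap between them without being called. Normal blood lay below post-TBI blood by 0.01 to 1.60 in the 7 members measured there, with the sign of Fn1 turning under several alternatives (down to -0.27 with the second brightest probe) and that of Timp1 when single arrays were left out (down to -0.06).

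The genes whose pattern over the arrays was most like that of a member were found by the root mean square difference of log2 values after each gene's mean was taken off. For Pdpn they were the monocyte chemoattractant Ccl7 (0.55 over 13 arrays), the endocytic adaptor Dab2 (0.67) and Gpnmb (0.75). Ccl7 (0.74), Pdpn (0.75) and Dab2 (0.78) were also nearest to Gpnmb. Spp1 was nearest to Ccl7 (1.35 over 14 arrays), Dab2 (1.39) and Syngr1 (1.97), with a range of its own of 12.41. Ccl7 averaged 4.59 ± 0.26 in Arg1+ and 3.60 ± 0.32 in Arg1- cells (SD, n = 4 each) and was at the floor on all blood arrays by its brightest probe.

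Nearest to Mmp12 were the gap junction gene Gja1 (0.22), Abcb6 (0.29) and the proton pump subunit Atp6v0d2 (0.30). Gja1 is also an astrocyte marker here. Sums over 8 astrocyte markers were 2.90 to 5.50 on the Arg1+ and 2.80 to 4.80 on the Arg1- arrays. In post-TBI and normal blood they were 1.59 to 1.90 and 1.29 to 1.88. The part of astrocyte RNA in the Mmp12 values was not tested. The probes of Gja1 and Atp6v0d2 are dim, while that of Abcb6 was well above background on all 14 arrays. Nearest to Mmp14 were the myosin Myo1e (0.35), Spsb1 (0.37) and the heparan sulphate proteoglycan Sdc4 (0.48). Nearest to Thbs1 were the lipid droplet gene Hilpda (0.54), Scamp5 (0.57) and the matrix protein Ecm1 (0.58). For Timp1 they were Mdfic (0.20), Gask1b (0.20) and Cspg5 (0.25), for Mmp19 Soat2 (0.29), Gab1 (0.33) and Rbm47 (0.34), and for Fn1 Mapk6 (0.18 over 12 arrays), Washc5 (0.19) and Lmln (0.19). These values describe likeness in level alone.

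Other genes of matrix turnover, grouped in 7 lists without the members, held 119 tested genes. These lists too were chosen with earlier results of these data known. Between the brain groups 10 of them (8.40%) were higher in Arg1+ cells, against 2.14% of all features, and 4 (3.36%) were lower, against 2.92%. Of 15 tested genes of the plasminogen system and the matrix-degrading cathepsins, 3 were higher in Arg1+ cells and 0 lower, with a median difference of 0.32 where the median over all features was 0.00. Among them were the collagen-degrading cathepsin Ctsk (1.33 ± 0.30, limma adjusted p = 0.0182) and cathepsin Ctsl (1.19 ± 0.20). The Ctsk call ended when Arg1- replicate 3 or 4, or Arg1+ replicate 2, 3 or 4, was left out. Of 15 matrix modifying enzymes 3 were higher and 0 lower (median 0.40). They were the collagen prolyl hydroxylase P4ha2 (2.51 ± 0.30), the hyaluronidase Hyal1 (1.86 ± 0.24) and the lysyl hydroxylase Plod1 (0.83 ± 0.14).

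Of 20 matrix and matricellular proteins 2 were higher and 0 lower (median 0.22), Ecm1 (1.18 ± 0.21) and galectin-1, Lgals1 (0.71 ± 0.15). Of 18 other metalloproteinases 1 was higher and 1 lower (median 0.14). The higher one was Mmp8, the neutrophil collagenase (0.98 ± 0.20), and the lower one the membrane-anchored Mmp25, also known from neutrophils (-3.29 ± 0.71). Mmp8 is also on the neutrophil list, whose sum was lower on the Arg1+ arrays (above). Of 10 protease inhibitors 0 were higher and 2 lower (median 0.01), Cst7 (-1.72 ± 0.44) and the neutrophil elastase inhibitor Serpinb1a (-1.57 ± 0.36). Both calls were lost without Arg1- replicate 2 or 3 or Arg1+ replicate 2 or 4, and that of Cst7 also without Arg1- replicate 4 or Arg1+ replicate 1. Of 17 receptors of matrix and osteopontin 1 was higher, the thrombospondin receptor Cd36 (2.21 ± 0.24), and 1 lower, the integrin Itga4 (-1.06 ± 0.20). None of 24 genes of TGF-beta signalling was called by limma (median 0.07), and 1 was higher and 1 lower at an unadjusted p under 0.05.

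Against post-TBI blood 51 of the 119 list genes (42.9%) were higher in Arg1+ cells, against 19.9% of all features, and 15 (12.6%) were lower, against 20.0%. Of the plasminogen and cathepsin genes 9 of 15 were higher and 0 lower (median 0.91), among them Ctsk (5.52 ± 0.33) and Ctsl (4.97 ± 0.22). Of the matrix modifying enzymes 8 were higher and 1 lower (median 0.87). Hyal1 (7.21 ± 0.26), P4ha2 (at least 11.1-fold) and the transglutaminase Tgm2 (2.19 ± 0.24) were higher and the heparanase Hpse lower (-1.11 ± 0.16). The Hyal1 probe was at the floor in post-TBI blood, though well above background on 1 of 3 arrays there. Of the matrix proteins 7 were higher and 0 lower (median 0.38), among them Sparc (4.42 ± 0.37), Ecm1 (4.13 ± 0.23) and Lgals1 (2.76 ± 0.17). Sparc is also a microglia marker here.

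Of the other metalloproteinases 7 were higher and 2 lower (median 0.43), with Adamts1 at least 71.3-fold higher, Adam8 (4.15 ± 0.55) and the gelatinase Mmp9 (1.93 ± 0.27) higher and Adam19 (-1.12 ± 0.40) and Mmp8 (-0.89 ± 0.22) lower. The Adam19 call was lost without Arg1+ replicate 1, 3 or 4 or post-TBI replicate 3 or 4 (adjusted p up to 0.16 by limma). Protease inhibitors had 3 higher (Cstb 4.37 ± 0.19, Slpi 1.16 ± 0.24, Timp2 1.09 ± 0.25) and 1 lower (Serpinb1a -2.12 ± 0.39). Receptors were split, with 8 higher and 6 lower (median 0.30). The syndecans Sdc4 (6.79 ± 0.19 to the floor, where its brightest probe lay in post-TBI blood) and Sdc1 (4.16 ± 0.21) and the integrin Itgb5 (1.97 ± 0.18) were higher. Another Sdc4 probe was well above background on all 3 post-TBI blood arrays, so the size given for Sdc4 holds for its brightest probe alone. The podoplanin receptor Clec1b (-4.61 ± 0.69), Itgb3 (-4.45 ± 0.47) and Itga4 (-3.43 ± 0.22) were lower. Clec1b and Itgb3 are also platelet genes.

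TGF-beta signalling genes were split too, with 9 higher and 5 lower of 24 (median 0.40). The activin subunit Inhba (7.20 ± 0.36), Ltbp3, which binds latent TGF-beta (3.75 ± 0.21), and Tgif1 (2.00 ± 0.27) were higher. The Inhba probe was at the floor in post-TBI blood, though well above background on 1 of 3 arrays there. The co-receptor Tgfbr3 (-4.78 ± 0.49), Ltbp1 (-4.37 ± 0.83) and the transducer Smad3 (-1.22 ± 0.22) were lower. The median over all features in this comparison was -0.03. Between the blood groups 1 of all genes on the 7 lists was called, the proteoglycan Vcan, higher after TBI (1.96 ± 0.29, limma adjusted p = 0.0134). It was named after its value was seen, and the call was lost without normal replicate 2 (1.82, adjusted p = 0.0941) or 4 (1.75, adjusted p = 0.0568), or post-TBI replicate 3 (1.96, adjusted p = 0.0777) or 4 (1.78, adjusted p = 0.0613).

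**Figure D5:**
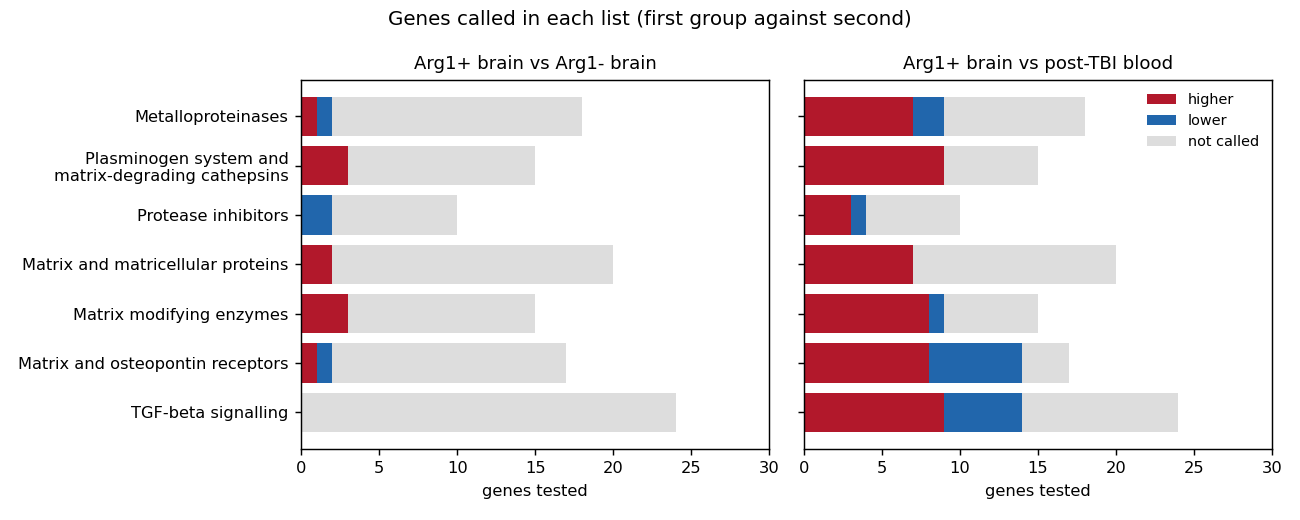
Number of tested genes of each list that were called higher (red), called lower (blue) or not called (grey) in Arg1+ brain cells, against Arg1- brain cells (left) and against post-TBI blood (right). The plasminogen and cathepsin list has 3 of 15 higher on the left and 9 of 15 on the right, and TGF-beta signalling has none called on the left.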

How the data were processed

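Amplified RNA of 14 samples was hybridised to 1-colour (Cy3) Agilent arrays. Per the file headers, the deposited intensity values are the processed signals of Feature Extraction 10.7.3.1, background-subtracted and not scaled between arrays, with median spot and background intensities and other values such as flags per spot. The authors also deposited log2 values for all arrays. The submitters' processing notes name limma for them, with no version, and their scale and centring are not stated. Gene positions of the array's own annotation (mm9) were not used.

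Each array's processed signal was divided by its 75th percentile over non-control probes, raised to a floor of 0.05 and log2 transformed. The scanner software's outlier flags removed 200 to 728 spots from an array, replicate spots of a probe were averaged, and no spot was saturated. A probe needed 2 usable arrays in each group and detection on 3 arrays in all, which 27612 of 41174 probes met (464 failed the first rule and 13098 the second). RefSeq accessions named 24844 probes through a GRCm38.p6 table. The brightest kept probe stood for a gene, unnamed probes stood alone, and 21972 features were fitted with limma 3.58.1 (R 4.3.3) on all 14 arrays and 4 groups (lmFit, eBayes with an intensity trend, two-sided, Benjamini-Hochberg). With 10 residual degrees of freedom, the 3 or 4 arrays of a group limit the precision. The script was tested on simulated data. A gene or probe below background on all arrays of a group is given as at least N-fold, or as a difference, against the floor. Such sizes hold for this floor and can be smaller with a higher floor, another background correction or the authors' values.

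Of each gene list, up to 3 called genes in each direction with the largest differences are named, and for each member the 3 nearest genes. A gene that this rule names is not reported here. Marker sums add linear ratios over genes usable on all arrays. The members and lists were chosen with earlier results of these data known. Alternatives were scaling, floor, background correction, filters, probe choice, the authors' values, slide and replicate number as blocks, and leaving out each array.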

Additional observations from a re-analysis of the deposited data

How the results depend on the processing

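The count of members called higher stayed within 1.5 times of its value under every alternative in 3 comparisons (2 to 4 for Arg1+ against Arg1- brain, 8 to 10 for Arg1+ brain and 6 to 9 for Arg1- brain against post-TBI blood), and no member was called lower in any. For post-TBI against normal blood, the 1 called member became 0 with median scaling, normexp, the authors' log2 values, a floor at 0.1, the mean of all probes, a fit on only the groups compared, and, chosen after seeing the data, the second brightest probe. Leaving out single arrays gave 0 to 2. Sign changes occurred only among uncalled blood differences. Fn1 was -0.05 with median scaling, -0.04 with the mean of all probes, -0.27 with the second brightest probe and -0.24 to 0.27 when single arrays were left out. Timp1 was -0.06 to 0.15 when single arrays were left out, and Spp1 was -0.00 with a floor at 0.1. The cause of these changes was not tested. Over all features, limma called 470 higher and 642 lower between the brain groups, but 380 and 392 with median scaling, 720 and 739 with only the groups compared, 839 and 951 without post-TBI replicate 4, 251 and 447 without Arg1+ replicate 3, 305 and 525 without Arg1+ replicate 2, 312 and 445 without Arg1- replicate 1, and 235 and 367 without Arg1- replicate 3. Between the blood groups it called 24 higher and 9 lower, with 0 to 49 higher under the alternatives (0 in both directions with only the groups compared, where 445 were higher and 446 lower at an unadjusted p under 0.05, 2 and 0 without post-TBI replicate 3).

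The labels do not say whether replicate numbers pair the samples. Same-numbered Arg1+ and Arg1- arrays, none on a shared slide, deviated together at -0.06, -0.46, 0.18 and 0.41. Same-numbered blood arrays did so at 0.21 and, on a shared slide, 0.35. Same-numbered brain and post-TBI blood arrays were between -0.22 and -0.08. These few values cannot settle whether the samples are paired. With a replicate block, 0 members were called in blood (Mmp14 1.23, adjusted p = 0.0791), Fn1 in Arg1- cells against post-TBI blood was not called (0.92, adjusted p = 0.139), and over all features 310 were higher and 519 lower between the brain groups by limma. Arrays of 1 slide deviated together at 0.04 to 0.59, and slide as a block changed no call of a member. Signal near or below background limits Mmp12, and Gpnmb, Mmp14, Mmp19, Pdpn and Spp1 in blood.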
